A study of Mus musculus with 6 samples.

Results

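The 5 mitochondrial mRNAs described here lie next to each other on the forward strand of the mouse mitochondrial chromosome (chrM, build GRCm38). They are mt-Co1, mt-Co2 and mt-Co3, for the core subunits of cytochrome c oxidase, and mt-Atp8 and mt-Atp6, for subunits of ATP synthase. They were chosen by their annotated coordinates, not by measured values, and make up 5 of the 37 mitochondrial genes and 5 of the 13 that code for proteins. The values come from small RNA libraries of mouse pancreatic islets, the small endocrine organs that release insulin, after 14 weeks on a high-fat diet. The wild-type group (Mrpp3WT) and the mutant group (Mrpp3N434S) had 3 libraries each, and all 6 shared the diet. The design text speaks of 3 mice per genotype, so the libraries were treated as separate animals. The sources used here give no sex, age or strain background. The values cover the mitochondrial chromosome alone, so markers of islet cells and the level of the Mrpp3 gene itself were not analysed here.

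Cytochrome c oxidase (complex IV) is the last enzyme of the respiratory chain and passes electrons to oxygen; its catalytic core is made of the mitochondrially encoded subunits CO1, CO2 and CO3. ATP synthase (complex V) uses the proton gradient to make ATP; ATP6 forms part of its proton channel and ATP8 is a small membrane subunit beside it. The mitochondrial genome is copied into long precursor RNAs in which tRNAs sit between most of the mRNAs, and cutting at both sides of the tRNAs frees the mRNAs. The cut at the 5′ side is made by mitochondrial RNase P, and MRPP3 is its catalytic subunit. The genes described here hold every kind of border: a tRNA on the same strand, a tRNA on the opposite strand, and no tRNA at all.

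The sequences of the borders are given here because the depth profiles rise or fall at them. Capitals mark the start codon in the first 3 sequences, the bases shared by mt-Atp8 and mt-Atp6 in the fourth sequence, the overlapping stop and start codons in the fifth, and the first bases of the tRNA gene mt-Tg in the last one.
mt-Co1 start, chrM:5308-5347, forward strand: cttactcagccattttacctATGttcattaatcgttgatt
mt-Co2 start, chrM:6993-7032, forward strand: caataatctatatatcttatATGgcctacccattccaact
mt-Atp8 start, chrM:7746-7785, forward strand: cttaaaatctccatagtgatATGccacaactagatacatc
mt-Atp8/mt-Atp6 overlap, chrM:7920-7976, forward strand: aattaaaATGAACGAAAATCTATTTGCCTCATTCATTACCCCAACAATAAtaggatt
mt-Atp6/mt-Co3 junction, chrM:8588-8627, forward strand: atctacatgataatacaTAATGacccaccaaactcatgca
mt-Co3/mt-Tg junction, chrM:9371-9410, forward strand: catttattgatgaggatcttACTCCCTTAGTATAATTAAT

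In the annotation, mt-Co1 (ENSMUSG00000064351.1, chrM:5328-6872) follows mt-Ty, the tyrosine tRNA, and its last 3 bases overlap mt-Ts1, a serine tRNA; both tRNAs are on the reverse strand. mt-Co2 (ENSMUSG00000064354.1, chrM:7013-7696) lies between the aspartate tRNA mt-Td and the lysine tRNA mt-Tk, both on the same strand. mt-Atp8 (ENSMUSG00000064356.3, chrM:7766-7969) follows mt-Tk and shares its last 43 bases with mt-Atp6 (ENSMUSG00000064357.1, chrM:7927-8607). mt-Atp6 and mt-Co3 (ENSMUSG00000064358.1, chrM:8607-9390) share 1 base, and no tRNA separates them. mt-Co3 ends directly before the glycine tRNA mt-Tg. None of these mitochondrial genes has introns, and the annotated bounds begin at the start codon. The deposited reference letters over all 5 genes were identical to the GENCODE transcripts.

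The files give the number of reads that cover each base on each strand (depth). Summed base depth over the chromosome ran from 3156761 to 4337052 in the wild-type libraries and from 5461367 to 10923311 in the mutant ones, with mutant replicate 1 the deepest. The 5 genes held 4.54% to 6.07% of it. Their highest depth at any base was 623, far from the ceiling near 8000 that some rRNA positions reached. Depth was scaled between libraries by TMM, a trimmed mean over the mitochondrial genes, so each difference is relative to other mitochondrial RNA. Fewer cells of a type and less RNA per cell cannot be told apart in such bulk samples. Because the libraries hold short RNA, a depth here is a measure of fragments and not of intact mRNA.

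**Figure D1:**
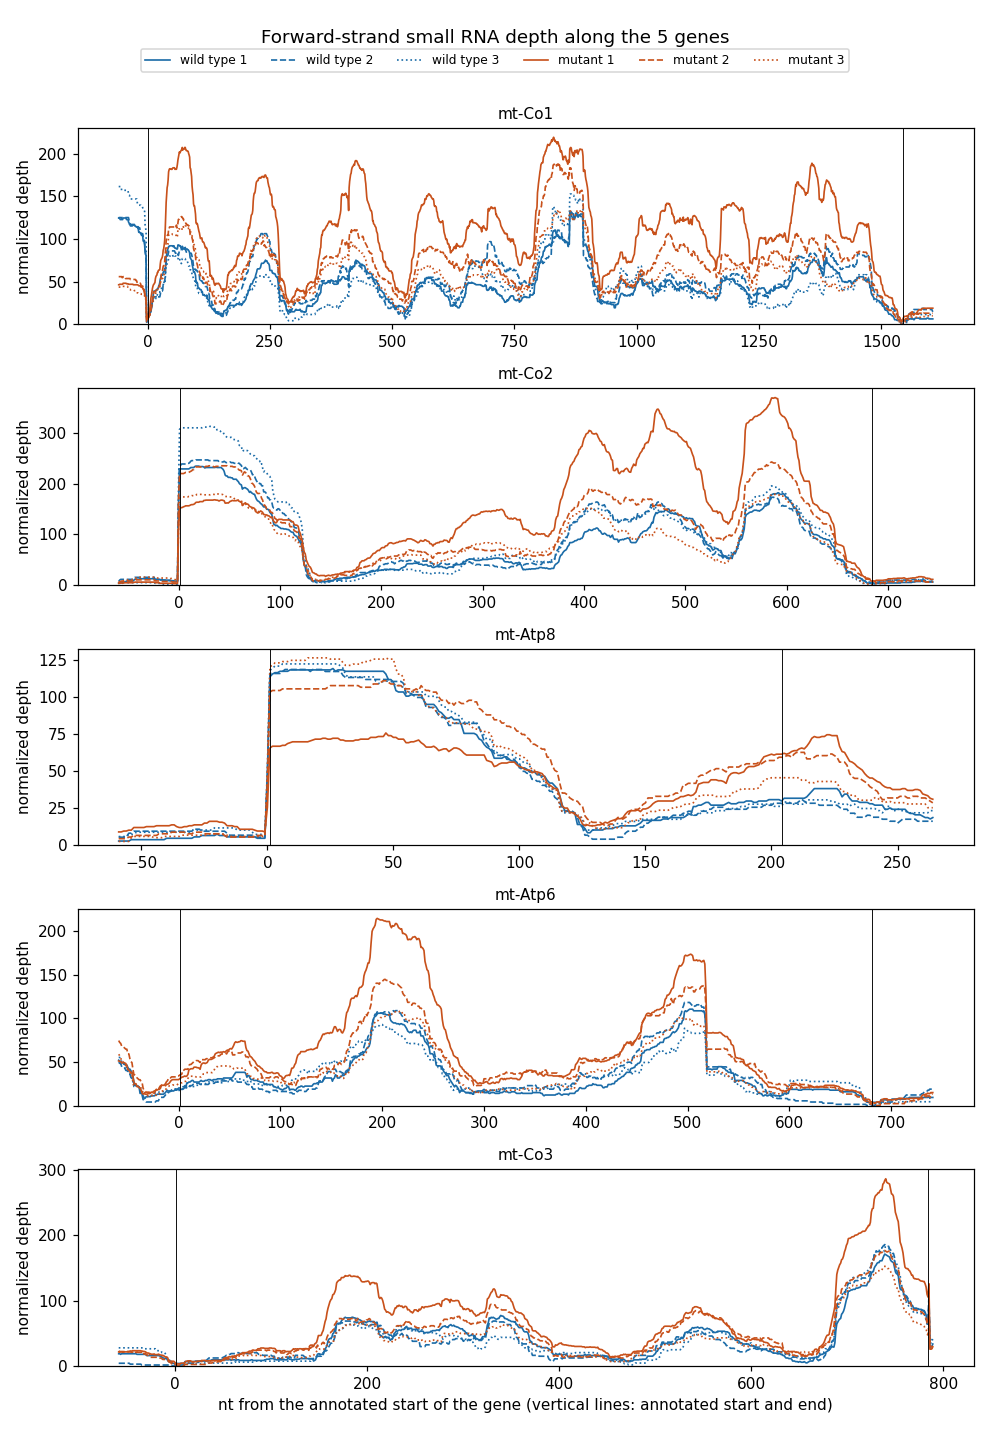
Normalized depth (TMM, reads per base, y axis) of the forward strand along each gene against the distance in nt from its annotated start (x axis), 1 line per library, with blue for wild type and orange for mutant. mt-Co2 and mt-Atp8 rise at once at their starts, whereas mt-Co1, mt-Atp6 and mt-Co3 hold their highest depth inside the gene or near its 3′ end.

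mt-Co2 had the highest mean depth of the 13 protein-coding genes in each of the 6 libraries. Among these 5 genes, mt-Atp8, the shortest, came next in each wild-type library, followed by mt-Co1, mt-Co3 and mt-Atp6. All 5 genes had a higher mean in the mutant group, but none passed the test. Of the 34 mitochondrial genes tested, 5.88% passed, 2.94% as higher and 2.94% as lower (edgeR quasi-likelihood test, Benjamini-Hochberg adjusted p under 0.05).

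For the complex IV subunits, mt-Co1, which codes for the subunit that holds the oxygen-reducing centre, had a normalized mean depth of 46.5, 54.0 and 43.7 in wild-type replicates 1 to 3 and of 111, 73.8 and 59.7 in the mutant ones. Every mutant library was above every wild-type library, and mutant replicate 1 was the highest. The group means were 48.1 ± 5.31 and 81.5 ± 26.6 (SD, n = 3), a log2 change of 0.78 (SE 0.26, edgeR adjusted p = 0.0597).

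mt-Co2, whose product receives electrons from cytochrome c, had 90.5, 99.7 and 109 in the wild-type libraries and 160, 118 and 91.3 in the mutant ones. The groups overlapped, since mutant replicate 3 was as low as the wild-type libraries (log2 change 0.32, SE 0.26, edgeR adjusted p = 0.385). mt-Co3, for the core subunit without metal centres, had 42.6, 40.9 and 39.4 against 72.1, 52.1 and 40.1. Its groups overlapped as well (log2 change 0.44, SE 0.25, edgeR adjusted p = 0.197).

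For the complex V subunits, mt-Atp6 had 36.3, 38.1 and 36.7 in the wild-type libraries and 71.4, 56.9 and 41.5 in the mutant ones. The wild-type libraries lay close together and all 3 mutant libraries were above them. The log2 change was 0.63 (SE 0.25, edgeR adjusted p = 0.0735). mt-Atp8 had 61.1, 59.4 and 61.9 against 50.8, 70.5 and 66.2. One mutant library was below the wild-type range and the others above it (log2 change 0.02, SE 0.25, edgeR adjusted p = 0.935).

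**Figure D2:**
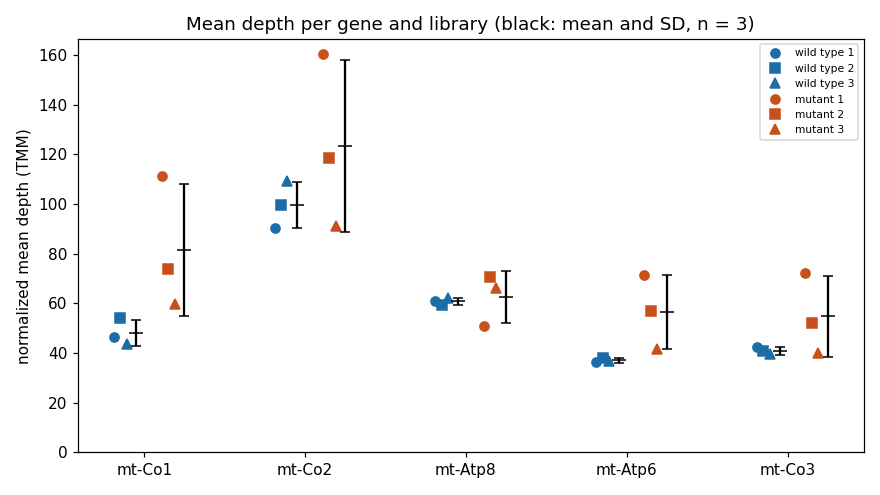
Normalized mean depth (TMM, y axis) of the 5 genes in each library, with the mean and SD of 3 libraries per group in black. The groups are apart for mt-Co1 and mt-Atp6 and overlap for mt-Co2, mt-Atp8 and mt-Co3, and mutant replicate 1 is the highest library for each gene except mt-Atp8.

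The groups did not overlap for 2 of the 5 genes, against 44.1% of all genes tested. At an unadjusted p under 0.05 there were 2 of the 5 by edgeR and 2 by DESeq2, beside 12 and 8 of all 34 tested. Neither tool called any of the 5 after adjustment. The median log2 change was 0.44 over the 5 genes, 0.41 over all 13 protein-coding genes, of which 11 were higher, and -0.03 over all 34 tested. Among the other respiratory chain mRNAs, 5 of the 7 for complex I were higher, with a median log2 change of 0.24, and mt-Cytb, the one for complex III, had 0.41; none of these 8 passed. Without mutant replicate 1, the log2 change of mt-Co1 was 0.46 and that of mt-Atp6 was 0.40. Without mutant replicate 3, the mutant library nearest to the wild-type mean in each of the 5 genes, mt-Co1 (0.98), mt-Atp6 (0.83), mt-Co3 (0.63) and mt-Co2 (0.51) passed. In that fit 11 of all 34 genes tested passed.

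The level also depended on what it was scaled to. Scaling to the protein-coding genes moved the median log2 change of all genes by -0.41 and scaling to the tRNAs moved it by 0.41. With the former none of the 5 genes passed and 2 were higher, beside 11 of all 34 that passed, 1 of them higher. With the latter 4 passed, all higher and all except mt-Atp8, beside 12 of all 34, all of them higher. The median of the 5 genes lay between 0.42 and 0.48 above that of all genes under each scaling. A change of scaling moves all genes by nearly the same amount, so this difference was nearly fixed by construction. Its constancy is therefore no separate result.

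Within a library the genes can be compared with each other without any scaling, as mean depth per base. The ratio of mt-Co1 to mt-Co2 was 0.514, 0.541 and 0.401 in the wild-type libraries and 0.694, 0.623 and 0.653 in the mutant ones. All mutant values were above all wild-type values (exact two-sided permutation p = 0.1, the smallest that 3 against 3 libraries allow, and 0.25 adjusted over the 10 pairs). The ratio of mt-Atp8 to mt-Atp6, which share transcripts, was 1.68, 1.56 and 1.69 against 0.712, 1.24 and 1.59. The wild-type libraries agreed closely, and mutant replicate 1 alone held less mt-Atp8 than mt-Atp6 depth. Its groups overlapped (exact permutation p = 0.2).

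Over the 6 libraries, the non-member genes whose normalized depth most resembled the mean pattern of the 5 genes were mt-Cytb, mt-Nd4 and the large rRNA gene mt-Rnr2. Their root mean square differences from it were 0.0884, 0.120 and 0.128 on the log2 scale.

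The 5′ ends differed by their border. At mt-Co2 the depth rose abruptly within 2 bases after mt-Td. At the last base of mt-Td it was 7, 6 and 1 reads in the wild-type libraries and 5, 6 and 11 in the mutant ones, and at the first base of mt-Co2 it was 246, 175 and 212 against 253, 201 and 204. A share of 67.8%, 65.7% and 62.6% of that rise in wild-type libraries, and of 69.0%, 75.9% and 63.2% in mutant libraries, came at the single base between the genes, position 7012, the t before the capital ATG in the sequence shown above. The remainder came at the A of the start codon. The groups overlapped in this share (exact permutation p = 0.4).

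mt-Atp8 began in the same way after mt-Tk. The depth at the last base of the tRNA was 5, 4 and 5 reads against 15, 6 and 7, and at the first base of mt-Atp8 it was 122, 86 and 81 against 110, 94 and 143. Here the single base between the genes, position 7765, took the smaller share of the rise, 41.0%, 37.8% and 32.9% against 29.5%, 36.4% and 41.2%. The groups overlapped again (exact permutation p = 0.7).

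mt-Co1, preceded by a tRNA on the other strand, had no such step. Its depth at the first base was 13, 5 and 8 reads in the wild-type libraries and 17, 7 and 10 in the mutant ones, and it climbed gradually from there. Just upstream lay forward-strand RNA that runs opposite mt-Ty and stopped 3 bases before the start codon. From position 5324 to 5325 its depth fell from 87, 53 and 74 reads to 7, 2 and 6 in the wild-type libraries and from 53, 27 and 36 to 9, 3 and 9 in the mutant ones.

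**Figure D3:**
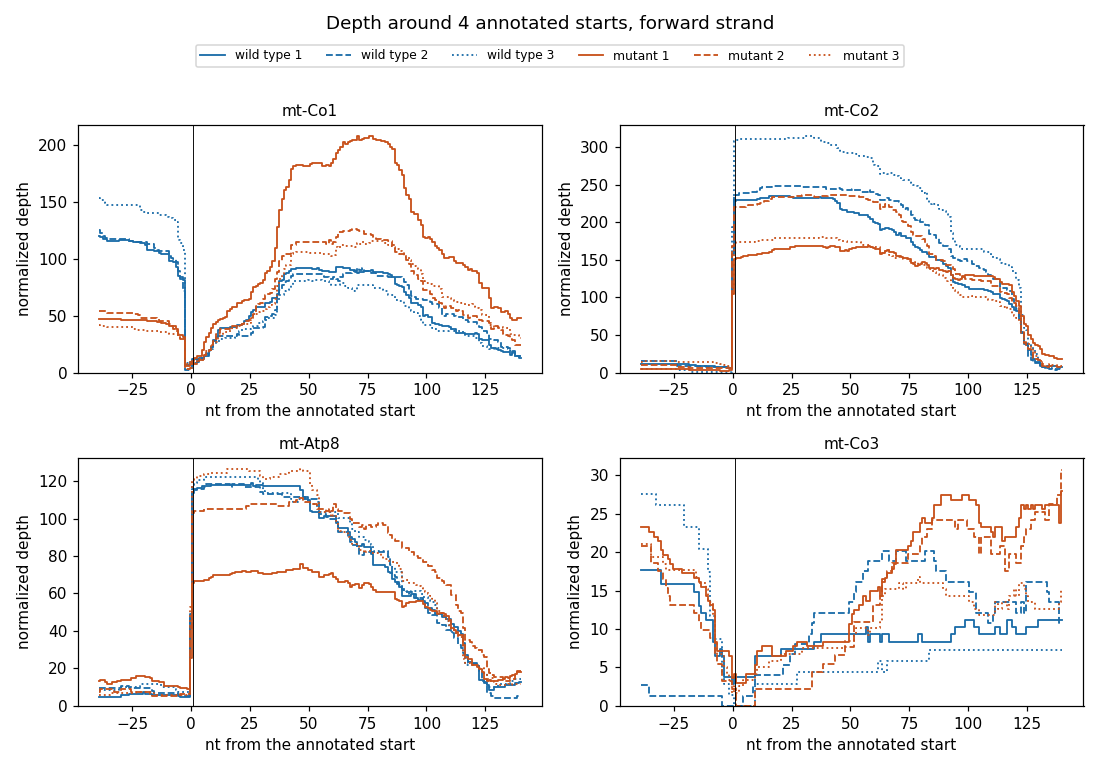
Normalized depth (TMM, y axis) around the annotated start of 4 genes (x axis, in nt, with the first base of the gene at 1), 1 line per library. mt-Co2 and mt-Atp8 show a vertical step at the start; before mt-Co1 the wild-type libraries (blue) lie above the mutant ones (orange); mt-Co3 starts from near 0.

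This border gave the only end among the 6 testable ends of the 5 genes, out of 10, that passed the test (7.69% of the 13 tested ends of all mRNAs). The ratio of the depth in the 10 nt after the start of mt-Co1 to that in the 10 nt before it was 0.246, 0.231 and 0.173 in the wild-type libraries and 0.888, 0.578 and 0.615 in the mutant ones. All mutant ratios were above all wild-type ratios, as in 1 of the 6 testable ends here and 23.1% of the 13, and the log2 change was 1.74 (SE 0.20, edgeR adjusted p = 0.00218). The side before the gene carried the change: its normalized depth was 65.5, 65.2 and 90.0 against 27.7, 26.0 and 25.3. On the side inside mt-Co1 the groups overlapped, with 16.1, 15.1 and 15.6 against 24.6, 15.03 and 15.6. What passed the test at this border was therefore less RNA opposite mt-Ty relative to the first bases of mt-Co1.

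The other testable ends gave no call. The log2 change of the ratio was -0.25 at the 5′ end of mt-Co2 and -0.41 at the 5′ end of mt-Atp8, both after a tRNA of the same strand. It was -0.38 at the 3′ end of mt-Co3, and 0.02 and 0.04 at the 3′ end of mt-Atp8 and the 5′ end of mt-Atp6, which have no tRNA. At these ends without a tRNA the depth ran on across the border, with ratios from 1.02 to 1.24 in the 6 libraries. Their small changes therefore say little about such borders. The edgeR adjusted p of the 5 testable ends without a call was between 0.645 and 0.944.

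The 2 borders without a tRNA did not look alike. Inside the mt-Atp8/mt-Atp6 overlap the fragments were continuous. Within 15 nt of the first base of mt-Atp6 the depth never fell below 8 to 38 reads, and within 15 nt of the last base of mt-Atp8 never below 18 to 87, depending on the library. At the mt-Atp6/mt-Co3 junction, where the TAATG shown above holds the stop and the start codon, the lowest depth within 15 nt was 3, 0 and 0 reads in the wild-type libraries and 5, 0 and 2 in the mutant ones. At the ends next to a tRNA of the same strand it was 1 to 11 at the 5′ end of mt-Co2, 0 to 10 at its 3′ end, 4 to 15 at the 5′ end of mt-Atp8 and 24 to 43 at the 3′ end of mt-Co3. At the ends opposite a tRNA it was 2 to 9 at the 5′ end of mt-Co1 and 1 to 6 at its 3′ end. The range at the mt-Atp6/mt-Co3 junction overlapped that of each of these ends except the 3′ end of mt-Co3, which was higher. The ends on both sides of the mt-Atp6/mt-Co3 junction were below the minimum depth for a test. A step up like that of mt-Co2 or mt-Atp8 was not seen at mt-Co3, whose first 100 nt held a mean of 3.09 to 23.4 reads.

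At the 3′ end of mt-Co3 the depth did not fall to near 0. At its last base it was 72, 55 and 42 reads in the wild-type libraries and 177, 59 and 54 in the mutant ones. At the first base of mt-Tg it was higher, 99, 79 and 64 against 211, 82 and 80, and at the second base of mt-Tg it dropped to 31, 30 and 24 against 43, 27 and 31. The drop was 61.3% to 79.6% over the 6 libraries, and the groups overlapped. It lay 1 base inside the annotated tRNA, after the first capital letter of the sequence shown above.

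How much of a gene's depth lay on its 5′ side differed between the genes. The ratio of the mean depth on the 5′ side of the gene's midpoint to that on the 3′ side was, in mt-Atp8, 4.06, 4.62 and 4.35 in the wild-type libraries and 1.88, 2.48 and 3.60 in the mutant ones. All mutant libraries were below all wild-type libraries (log2 change -0.75, SE 0.26, edgeR adjusted p = 0.216). In mt-Co2 the ratio was 0.903, 0.900 and 1.01 against 0.4999, 0.735 and 0.874. These groups were also apart (log2 change -0.50, SE 0.28, edgeR adjusted p = 0.351). In mt-Co1, mt-Atp6 and mt-Co3 the groups overlapped, with log2 changes of 0.11, 0.17 and 0.19. No gene passed, of the 5 or of the 12 tested (0%), and the groups did not overlap in 2 of the 5, against 41.7% of those tested. At an unadjusted p under 0.05 there was 1 of the 5, mt-Atp8, by edgeR and 1 by DESeq2, beside 2 of the 12 tested by each tool. mt-Atp8 passed when the middle part of each gene was left out (edgeR adjusted p = 0.000523), without mutant replicate 2 (0.0493) and without mutant replicate 3 (0.0014). Of all genes tested in these fits, 1 of 10, 2 of 11 and 3 of 12 passed, in the same order.

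The reads that begin at mt-Co2 and mt-Atp8 fill about the first 100 nt, so the depth of the first 100 nt was set against the rest of each gene. This measure was chosen after the profiles were seen. In mt-Co2 the ratio was 2.79, 2.87 and 3.42 in the wild-type libraries and 0.968, 2.04 and 2.03 in the mutant ones. Mutant replicate 1 was the lowest and no library of one group reached the other (log2 change -0.96, SE 0.36, edgeR adjusted p = 0.0631). In mt-Atp8 it was 4.01, 4.55 and 4.27 against 1.88, 2.45 and 3.56. These groups were likewise apart (log2 change -0.77, SE 0.28, edgeR adjusted p = 0.0631). As mt-Atp8 is 204 nt long, this nearly repeats the split at its midpoint and is no separate result. None of the 13 mRNAs passed (0%), and the groups did not overlap in 2 of the 5, against 46.2% of all 13. At an unadjusted p under 0.05 there were 2 of the 5 by edgeR and 1 by DESeq2, beside 5 and 2 of all 13. Without mutant replicate 1, mt-Co2 passed with a log2 change of -0.56 (edgeR adjusted p = 0.0137), and mt-Atp8 had -0.51 (adjusted p = 0.362). Without mutant replicate 3 both passed, with -1.15 and -1.01. Of all mRNAs tested, 1 of 10 passed without mutant replicate 1 and 6 of 13 without mutant replicate 3.

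The parts behind these ratios differed between the genes. The first 100 nt of mt-Co2 had a normalized depth of 200.2, 225 and 275 in the wild-type libraries and 156, 209 and 161 in the mutant ones, while the rest of the gene had 71.7, 78.3 and 80.6 against 161, 103 and 79.4. The groups overlapped on both sides, with mutant values mostly lower at the start and mostly higher behind it. The first 100 nt of mt-Atp8 overlapped, with 98.9, 98.7 and 102 against 66.7, 101 and 105. The rest of mt-Atp8 had 24.7, 21.7 and 23.8 against 35.6, 41.2 and 29.4, with every mutant library higher. The last bases of mt-Atp8 are shared with mt-Atp6.

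mt-Co2 and mt-Atp8 belong to the mRNAs that start right after a tRNA. All 8 mRNAs that start after a tRNA of the same strand had a lower mean ratio in the mutant, with log2 changes from -1.44 to -0.49 and wild-type means from 3.03 to 10.6. The groups were apart in 5 of the 8 and overlapped in mt-Nd3, mt-Nd5 and mt-Nd6. In each of the 8, mutant replicate 1 had the lowest ratio of the 6 libraries. In mt-Nd5, mutant replicate 3 had 5.85, above the 5.50, 5.69 and 5.16 of the wild-type libraries. The 8 ratios come from the same 6 libraries and are not independent of each other. Of the other 5 mRNAs, 2 were lower, with log2 changes from -0.33 to 0.49 and wild-type means from 0.183 to 1.82. mt-Co1 had -0.10, mt-Atp6 0.18 and mt-Co3 0.04. The difference between these classes of start was not tested.

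**Figure D4:**
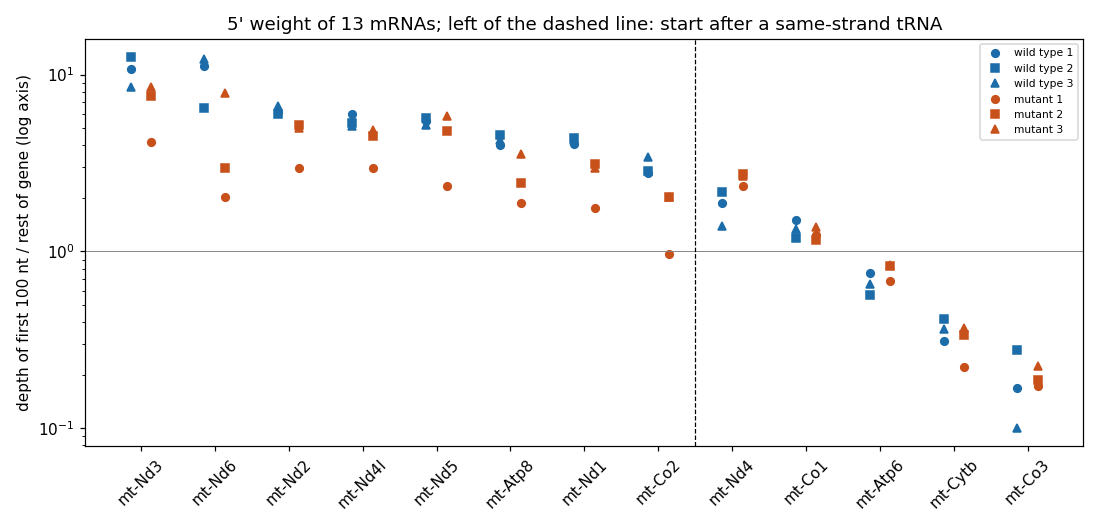
Ratio of the mean depth of the first 100 nt to that of the rest of the gene (y axis, log scale) for the 13 mitochondrial mRNAs, 1 point per library. Left of the dashed line are the 8 genes that start after a tRNA of the same strand, where the mutant (orange) means are lower than the wild-type (blue) ones, and right of it are the other 5.

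The distance over which the depth fell off was taken from the starts of mt-Co2 and mt-Atp8. Going from the start of mt-Co2, the depth fell to 50% of its initial value after 99, 114 and 110 nt in the wild-type libraries and after 123, 114 and 117 nt in the mutant ones, which overlapped (exact permutation p = 0.2). In mt-Atp8 it did so after 90, 95 and 93 nt against 116, 114 and 99 nt. Every mutant value was longer there (exact permutation p = 0.1, the smallest possible). Depth from fragments that start further inside the gene adds to these distances, and its part was not tested. In mt-Co2 the depth first fell to 10% after 128, 126 and 128 nt in the wild-type libraries and after 677, 128 and 130 nt in the mutant ones. The groups overlapped (exact permutation p = 0.3), and mutant replicate 1 alone reached 10% only near the 3′ end of the gene, which is 684 nt long. In mt-Atp8 it did so after 126 nt in each of the 3 wild-type libraries and after 840, 828 and 130 nt in the mutant ones. Every mutant value was longer (exact permutation p = 0.1), and in mutant replicates 1 and 2 the depth did not fall to 10% within mt-Atp8, which is 204 nt long. No read length is given.

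The share of a gene's depth that lay in the deepest 10% of its positions describes how peaked it was. In mt-Co2 it was 24.48%, 24.2% and 27.4% in the wild-type libraries and 20.7%, 19.7% and 19.3% in the mutant ones. In mt-Atp8 it was 18.97%, 19.5% and 19.3% against 14.0%, 15.1% and 18.6%. The groups were apart in both genes and overlapped in the other 3, beside 61.5% of the 13 mRNAs with groups apart (exact permutation p = 0.1 for each of these 2 genes, 0.163 adjusted over the 13).

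Peaks were runs of at least 15 nt at 2 or more times the mean depth of the gene, called on the mean of all 6 libraries. The 5 genes held 5 of the 18 peaks in mRNAs, and mt-Atp8, whose highest depth was 1.83 times its mean, held none. Their sequences are given because, in the mean of all 6 libraries, they are the stretches of highest depth in the genes that have a peak. This did not hold in each library. In mt-Co2 the highest depth of the gene was 623 reads in mutant replicate 1, against 283 in the peak. In mutant replicate 2 it was 222 against 215. Capitals mark the base of highest mismatch for mt-Co2 and the summit for mt-Co1, mt-Co3 and the first peak of mt-Atp6. For the second peak of mt-Atp6 they mark the 3 bases behind a sharp drop.
mt-Co1 peak, chrM:6153-6217, forward strand: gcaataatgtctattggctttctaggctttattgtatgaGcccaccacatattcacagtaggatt
mt-Co2 peak, chrM:7013-7072, forward strand: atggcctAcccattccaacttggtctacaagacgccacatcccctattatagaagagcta
mt-Atp6 first peak, chrM:8114-8168, forward strand: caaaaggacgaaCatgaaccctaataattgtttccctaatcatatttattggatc
mt-Atp6 second peak, chrM:8408-8447, forward strand: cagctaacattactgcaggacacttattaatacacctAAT
mt-Co3 peak, chrM:9296-9374, forward strand: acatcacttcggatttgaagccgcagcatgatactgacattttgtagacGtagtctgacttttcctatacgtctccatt

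The mt-Co3 peak stood highest against its gene, at 4.05 times the mean, and lay 739 nt from the start, near the 3′ end. The other 4 peaks reached 2.17 to 2.70 times the mean of their genes. The normalized height of the mt-Co3 peak was 171, 186 and 182 in the wild-type libraries and 286, 177 and 152 in the mutant ones. Only mutant replicate 1 was above the wild-type range (log2 change 0.20, SE 0.25, edgeR adjusted p = 0.592). The peak at the start of mt-Co2 had 235, 248 and 314 against 168, 236 and 180.1. It was the only one of the 5 with a lower mutant mean, and the groups overlapped (log2 change -0.45, SE 0.24, edgeR adjusted p = 0.253).

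The first mt-Atp6 peak had 106, 109 and 93.1 against 215, 145 and 109. Its lowest mutant library lay within the wild-type range (log2 change 0.61, SE 0.27, edgeR adjusted p = 0.174). The second mt-Atp6 peak and the mt-Co1 peak both had log2 changes of 0.38 (adjusted p = 0.279 for each). None of the 5 peaks passed, against 11.1% of the 18. At an unadjusted p under 0.05 there were 3 of all 18 by edgeR and 4 by DESeq2. Among the 5 peaks it was 1 by edgeR, the first mt-Atp6 peak, and 1 by DESeq2, the mt-Co2 peak. The 2 tools thus picked different peaks with opposite signs. With DESeq2, which used its own scaling over the peaks, the mt-Co2 peak had -0.66 and the first mt-Atp6 peak 0.32. The groups overlapped in all 5 peaks, beside 16.7% of the 18 with groups apart. Without mutant replicate 3 the first mt-Atp6 peak passed, with a log2 change of 0.82 (edgeR adjusted p = 0.00683). In that fit 6 of all 18 peaks passed.

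The second mt-Atp6 peak ended in a cliff inside the coding sequence, far from any annotated end. After position 8444 the depth dropped by 53.6%, 52.9% and 46.7% from 1 base to the next in the wild-type libraries and by 36.8%, 44.8% and 46.5% in the mutant ones. The drop was smaller in each mutant library than in any wild-type library, though mutant replicate 3 and wild-type replicate 3 nearly met. The base before the drop is the t in front of the capital AAT in the sequence.

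Windows of 50 nt showed where along the genes the depth differed. Of 76 windows tested in the 5 genes, 28 passed, all higher in the mutant, beside 36.7% of the 294 windows tested on both strands of the chromosome, 31.6% as higher and 5.1% as lower. They were 19 of 30 in mt-Co1, 5 of 14 in mt-Co2 and 0 of 4 in mt-Atp8. In mt-Atp6 they were 3 of 13 and in mt-Co3 1 of 15 (edgeR quasi-likelihood test). The median log2 change of the windows in these genes was 0.62 and that of all windows 0.56, a difference of 0.06. DESeq2 called 4 of the 76, 1 higher and 3 lower, beside 75 of all 294, 32 higher and 43 lower. It used its own scaling over the windows in place of TMM, and its median log2 change of all windows was 0.04. The tool and the scaling thus changed together, and their parts were not tested. Leaving out 1 library moved the count of the 28 to between 3, without wild-type replicate 3, and 61, without mutant replicate 3. Over all windows these fits called 54 of 305 and 171 of 293.

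Scaled to the protein-coding genes, the median of all windows was 0.10 and 5 windows of the 5 genes passed. Of these, 2 were higher, at bases 124 to 173 and 1224 to 1273 of mt-Co1, with log2 changes of 0.78 and 0.74. The 3 lower ones together covered chrM:7001-7150, which holds the start of mt-Co2, with log2 changes of -0.85, -0.77 and -0.60. Over all windows, this scaling changed the calls from 93 higher and 15 lower to 35 higher and 43 lower. Neighbouring windows share fragments and are not independent.

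**Figure D5:**
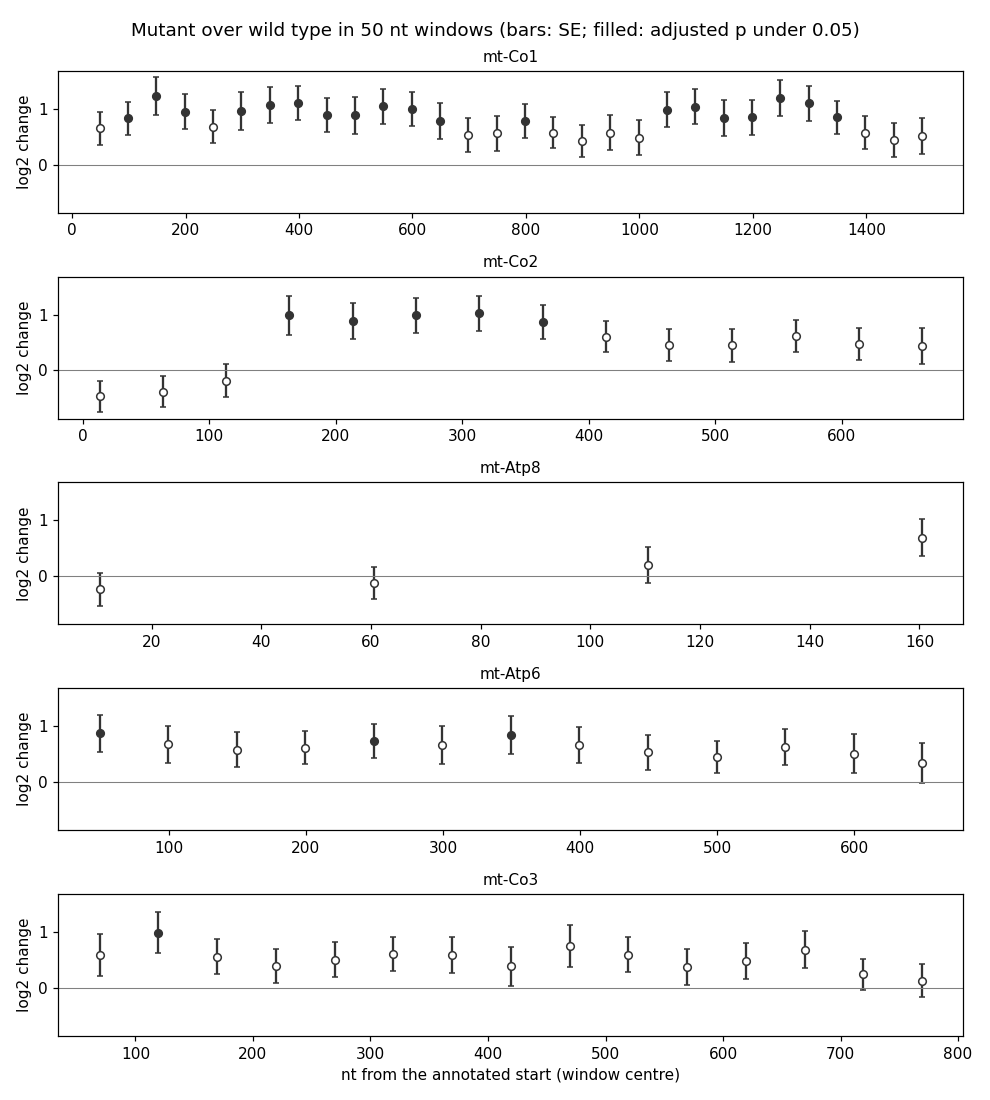
Log2 change, mutant over wild type, of the depth of 50 nt windows (y axis, bars are the SE) against the distance of the window centre from the annotated start in nt (x axis), with TMM scaling; filled points passed the test. Every tested window of mt-Co1, mt-Atp6 and mt-Co3 lies above 0, and the first windows of mt-Co2 and mt-Atp8 lie below it.

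The bases at which reads began and ended were taken from the steps in depth between neighbouring positions in the 5 genes. Without the read length, the end of a read and the end of a fragment cannot be told apart. Upward steps are where more reads start than end. They followed a C or T in 53.2%, 52.7% and 53.1% of their summed size in the wild-type libraries and in 50.9%, 51.4% and 51.6% in the mutant ones. These shares were near the 54.8% of all 3851 junctions that follow a C or T. The mutant mean was 1.68 percentage points lower and the groups did not overlap (exact permutation p = 0.1, the smallest possible). Taking only steps of at least 5 reads, they did overlap (exact permutation p = 0.7).

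Downward steps, where more reads end than start, had a far larger share after a C or T. Their share was 74.3%, 72.1% and 73.2% of the summed size in wild-type libraries, against 74.0%, 72.3% and 74.8% in mutant libraries. The groups overlapped. The junction between T and A makes up 9.58% of junctions. By summed size it took 17.2%, 17.0% and 18.2% of the downward steps in wild-type libraries, against 14.7%, 15.8% and 14.8% in mutant libraries. The share was lower in every mutant library (exact permutation p = 0.1, not adjusted over the kinds of step examined). The drop after position 8444 in mt-Atp6 is part of this share. Of the summed size of upward steps, the same junction took 8.47%, 8.45% and 8.24% in wild-type libraries, against 8.95%, 9.93% and 9.56% in mutant libraries. That share was higher in every mutant library (exact permutation p = 0.1, not adjusted). Averaged over the libraries, the summed size of upward steps was largest, relative to the share of such junctions, between A and A (2.07 times) and between C and A (1.68 times). That of downward steps was largest between T and A (1.70 times) and between C and C (1.69 times).

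Mismatches to the reference were rare. Of 3854 positions in the 5 genes, 760 were covered at least 50 times in each library, with a median mismatch of 0.257%. A single site reached a mean of 2%: the A at position 7020, base 8 of mt-Co2, capital in the peak sequence above. Its mismatch was 2.02%, 1.12% and 2.80% in the wild-type libraries and 3.42%, 2.46% and 3.38% in the mutant ones. The groups overlapped, and each value rested on 2 to 9 mismatched reads, so its exact 95% binomial interval was wide, for example 0.660% to 4.66% in wild-type replicate 1. Over all 6 libraries the bases read there were 1279 A, 26 C, 5 G and 3 T. The test gave a log2 change in odds of 0.62 (SE 0.49, edgeR adjusted p = 0.424), and none of the 16 mitochondrial sites tested passed (0%; 2 at an unadjusted p under 0.05 by edgeR, 0 by DESeq2).

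RNA on the reverse strand of these genes was scarce. It was below the minimum depth for the test in all 5, with a mean of 4.24 reads or less in every library. Its share of the depth of both strands was largest at mt-Co1, with 7.50%, 9.56% and 8.47% in the wild-type libraries and 1.80%, 4.55% and 3.10% in the mutant ones. Each mutant library was below each wild-type library (exact permutation p = 0.1, the smallest possible, and 0.25 adjusted over the 5 genes). Reverse depth at mt-Co1 itself was 4.05, 4.24 and 2.78 reads against 3.42, 3.21 and 2.26, while the forward depth of the mutant libraries was higher. In the other 4 genes the share was at most 2.21% in any library.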

How the data were processed

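Libraries were made from islet total RNA with the Illumina TruSeq small RNA protocol, per the labels' protocols. Trim Galore, cutadapt, FastQC, STAR and the build GRCm38.p6 are named, per the submitters' processing notes. The sources used here give neither their versions and order nor the base counting tool, the read length or how reads from nuclear copies were handled. Per the file headers, the authors deposited unscaled counts of each base per position and strand. A further deposited table of base counts at tRNA position 9 has 16 columns of per-sample values whose headings match no label; these were not used.

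Mean depth per gene on its own strand was rounded and tested with edgeR 4.0.16 in R 4.3.3 (quasi-likelihood test), all 6 libraries, TMM over mitochondrial genes, minimum mean depth 10, Benjamini-Hochberg threshold 0.05. A fragment adds to the depth of every base it covers, so depths of neighbouring bases are not independent counts. Normalized depth is depth divided by the TMM size relative to its mean. Ratios (both sides of the midpoint, first 100 nt, 10 nt on each side of an end, mismatch, strand) were tested with a library effect and a genotype term on the ratio, for features with a mean of at least 10 on both sides, or, for mismatch, a depth of 50 in every library and a mean of 2%. Standard errors were derived from the log2 change and its p-value. Single values used exact two-sided permutation tests. Binomial intervals are exact (Clopper-Pearson, 95%) and cover counting error only. All pairs of libraries differed by more than counting noise (chi-square per degree of freedom 3.33 or more). The fits were tested on simulated data.

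The members, lists and tests were chosen with earlier results of these data known. The rule for naming took all 5 genes, every end, the 2 highest peaks per gene, every mismatch site that met the minimum, the tRNAs next to the ends, the 3 genes of most similar pattern, and complex I and III mRNAs as counts. The first 100 nt measure, TMM over protein-coding genes, a minimum in either window of an end, the windows named after scaling to protein-coding genes and the drop inside mt-Atp6 were chosen after their values were seen. Alternatives were DESeq2 1.42.0, other scalings, minima, window lengths and measures of depth, a block on the replicate number, and fits without 1 library. For depth, peaks and windows DESeq2 used its own scaling in place of TMM, so these runs changed both tool and scaling.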

Additional observations from a re-analysis of the deposited data

How the results depend on the processing

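The single end that passed, the 5′ end of mt-Co1, passed in every alternative run except a minimum mean depth of 30, where it was not tested and the count was 0; the count was also 1 in each fit without 1 library. For mean depth the count of the 5 genes that passed was 0 in the fit reported, 2 with no minimum depth above 1, 4 scaled to tRNA and 3 by median depth. It was 0 to 4 without 1 library, 4 being without mutant replicate 3. Over all genes the counts were 2 of 34, 6 of 37, 12 of 34, 6 of 34 and 0 to 11 of 34 in the same order. For the 5′ to 3′ ratio the count of the 5 genes was 1 with the middle part of each gene left out. Without 1 library it was 0 to 1 (1 without mutant replicate 2 and 1 without mutant replicate 3). For the first 100 nt it was 0 to 2 (1 without mutant replicate 1, 2 without mutant replicate 3). Over all mRNAs these counts were 1 of 10, 0 to 3 and 0 to 6 in the same order. For peaks of the 5 genes the count was 0 to 1 (1 without mutant replicate 3), beside 0 to 6 of all 18 without 1 library. For mismatch it was 0 in each fit. No strand ratio of the 5 genes could be tested in any fit run, so that its count of 0 says nothing about stability. For windows of the 5 genes the count was 28, but 4 with DESeq2, 5 scaled to protein-coding genes, and 13 with 100 nt windows. Over all windows these were 108 of 294, 75 of 294, 78 of 294 and 53 of 153. Without 1 library the count in the 5 genes was 3 to 61. It was 6 without wild-type replicate 1, 15 without wild-type replicate 2, 3 without wild-type replicate 3, 17 without mutant replicate 1 and 61 without mutant replicate 3. Over all windows these were 53 of 301, 76 of 302, 54 of 305, 96 of 272 and 171 of 293. The difference in the share of upward steps after C or T was -2.33 percentage points for steps of at least 5 reads, and -1.85 to -1.49 without 1 library. The cause of these shifts was not tested, beyond what each setting changes by its construction.

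Signs that turned belonged to values that had not passed. For depth, mt-Co2 had -0.10 scaled to total depth, -0.32 to rRNA, -0.13 to protein-coding genes and -0.11 with TMM over protein-coding genes. mt-Atp8 had -0.37, -0.58, -0.37 and -0.37 in the same order, -0.088 by maximum depth, and -0.13 to 0.16 without 1 library. mt-Atp6 had -0.013 scaled to rRNA; mt-Co3 had -0.21 to rRNA, -0.017 to protein-coding genes and -0.0042 with TMM over these. The 3′ end of mt-Atp8 had -0.032 with 5 nt windows. For the first 100 nt, mt-Co1 had -0.20 to 0.0069 and mt-Co3 -0.19 to 0.37 without 1 library. Scaled to protein-coding genes, the mt-Co1, second mt-Atp6 and mt-Co3 peaks had -0.057, -0.065 and -0.26; the mt-Co3 peak had -0.083 with DESeq2 and -0.13 to 0.38 without 1 library.

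The replicate numbers do not pair the samples by any label, and deviations of same-numbered libraries correlated at -0.04, -0.24 and 0.23 over 34 genes. With the number as a replicate block, the counts were 0 for depth, 1 for the 5′ to 3′ ratio, 1 for the first 100 nt, 1 for ends, 0 for peaks and 22 for windows. Over all features tested they were 0 of 34, 3 of 12, 2 of 13, 2 of 13, 2 of 18 and 98 of 294 in the same order. For lack of depth, 4 of the 10 ends of these genes, and the reverse strand of all 5, were not tested.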
